A study of Mus musculus with 4 samples.

Results

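The genes of the respiratory chain and the ATP synthase were compared between a mouse lymphoma line that resists the drug JQ1 and a line that is sensitive to it. Members were taken by name: protein-coding rows whose symbols start with Nduf, Sdha, Sdhb, Sdhc, Sdhd, Uqcr, Cox4i, Cox5, Cox6, Cox7, Cox8, Cyc1, Cycs, Atp5 or mt-. The rule found 106 of the 16591 genes in the table. Of these, 13 are encoded in mitochondrial DNA and 93 in the nucleus, and the nuclear members comprise 81 subunits and 12 assembly factors that the name rule also takes (Ndufaf1 to Ndufaf8 and Sdhaf1 to Sdhaf4). The test described below could be made for 104 of them, and Cox6a2 and Cox7a1 had too few counts. A further 22 rows that match by name are mitochondrial tRNAs and rRNAs or pseudogenes and are not members.

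The resistant group is the line JQ1R with 2 libraries, and the sensitive group is the line JQ1S with 2 libraries. Both are Eμ-Myc lines, B-lymphoma cells of C57BL/6 mice in which an immunoglobulin heavy-chain enhancer drives Myc, and JQ1 blocks BET bromodomain proteins, readers of acetylated histones. Both lines were grown as early-passage cells in medium, and the labels name no drug before harvest. The comparison asks how cells that resist a BET inhibitor differ from cells that respond to it. There is 1 line of each kind, so resistance and whatever else sets the lines apart cannot be told apart, and the labels do not say that the libraries of a line came from separate cultures, so p-values measure only the spread between these libraries, which may be technical.

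Total counts were 10928239 and 11809635 in the resistant libraries and 13048103 and 10346007 in the sensitive libraries. Levels are given as CPM, counts scaled to a library total of 1000000 with edgeR's TMM factors, and a single count was worth 0.0766 to 0.0967 CPM. Of 9 listed B-cell markers, 8 had enough counts to be tested. Together these had 2224 and 2144 CPM in resistant cells, against 2032 and 2073 CPM in sensitive cells. Cd79a, for example, was at 453 and 427 CPM in resistant cells, against 425 and 452 CPM in sensitive cells. Of the listed T-cell, myeloid, erythroid and fibroblast markers Itgam was the highest, at 1.46 and 1.60 CPM in resistant cells and 1.31 and 0.971 CPM in sensitive cells. Among 8 tested B-cell markers, Cd22 and Blk were called higher in resistant cells, where 2.2% of all tested genes were. The 2 sensitive libraries were less alike for the nuclear members than the 2 resistant ones: the median log2 difference of replicate 2 from replicate 1 was -0.02 in the resistant line and -0.08 in the sensitive line, and over all tested genes it was 0.0015 in the sensitive line. Of the members, 34 have an exon that overlaps another gene on the other strand and 12 share over 50% of the 50-base windows of their mRNA with other genes, so their counts may hold reads of those genes. For several members in which sensitive replicate 2 stood apart from the other libraries, the value without it is given beside the result. With 2 libraries a line it cannot be told which of them is the odd one. Values without sensitive replicate 1 are given for some members further on.

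The respiratory chain passes electrons from NADH and succinate through complexes I and II, ubiquinone, complex III and cytochrome c to oxygen at complex IV, and complexes I, III and IV pump the protons whose return drives the ATP synthase. Its subunits come from both genomes: all of complex II is nuclear, while each of the other complexes combines core proteins of mitochondrial DNA with nuclear ones. The mitochondrial genes are read as long transcripts from both strands of a circular genome and cut into separate mRNAs, whereas each nuclear gene has its own promoter, many of them with sites for NRF1, GABP or YY1.

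The sequences that the results turn on are shown first. The 4 mitochondrial genes called lower in resistant cells begin as follows, 5′ to 3′ on the coding strand, with the annotated start codon in capitals, and mt-Co1 is added as a neighbour that was not called. Sequences are those of GENCODE M21 transcripts on GRCm38, and the positions are chrM:2751-2810 plus strand for mt-Nd1, chrM:3914-3973 plus strand for mt-Nd2, chrM:11742-11801 plus strand for mt-Nd5, chrM:14011-14070 minus strand for mt-Nd6 and chrM:5328-5387 plus strand for mt-Co1.
mt-Nd1: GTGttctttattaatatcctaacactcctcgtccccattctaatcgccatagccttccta
mt-Nd2: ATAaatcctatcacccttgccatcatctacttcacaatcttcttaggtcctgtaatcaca
mt-Nd5: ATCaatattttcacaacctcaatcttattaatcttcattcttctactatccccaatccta
mt-Nd6: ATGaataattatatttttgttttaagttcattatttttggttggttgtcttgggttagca
mt-Co1: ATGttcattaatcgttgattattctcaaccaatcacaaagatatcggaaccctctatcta

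These genes differ in their start codons and in base composition. The mRNA of mt-Nd6, the only protein gene on the other strand, is 28.1% G and 5.97% C, whereas G makes up 5.88% to 16.1% of the other mRNAs. The 2 ATP synthase genes of the mitochondrial genome share 43 bases at chrM:7927-7969 on the plus strand, read in different frames, and the start codon of mt-Atp6 within the stretch is in capitals. A read inside it belongs to both genes.
mt-Atp8 and mt-Atp6: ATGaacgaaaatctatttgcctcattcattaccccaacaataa

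Of the 104 tested members, 5 were called at an adjusted p below 0.05 by edgeR's quasi-likelihood test (Benjamini-Hochberg adjustment over all 11945 tested genes), and all 5 code for complex I. Counts of 4 mitochondrial subunits, mt-Nd1, mt-Nd2, mt-Nd5 and mt-Nd6, fell in resistant cells, and those of 1 nuclear subunit, Ndufb11, rose. For mt-Nd6 the strand of the reads is not known, as given below. Over all tested genes the same test called 3.73%, with 2.2% higher and 1.52% lower. All 5 calls were also made with edgeR under DESeq2's factors (3.52% of all genes called), under factors from nuclear genes only (3.55%) and under library size only (3.56%). The 13 mitochondrial genes thus had 4 calls lower and 0 higher, and the 91 tested nuclear members 1 higher and 0 lower. These numbers do not compare sizes of change, since the mitochondrial genes mostly had more counts and smaller standard errors. For example, mt-Nd6 (log2 change -0.20 ± 0.05) was called, while Cox6c and Sdhaf2 (0.21 ± 0.07 each) were not. Genes cut from the same long transcript may also not change independently. The median log2 change was -0.14 for the mitochondrial members and 0.02 for the nuclear members, beside 0.0033 over all tested genes. Both resistant libraries lay below both sensitive ones in 9 of the 13 mitochondrial genes and above them in 1, where 23.2% and 24.1% of all tested genes did so. The same held for 14 and 18 of the 91 nuclear members. At an unadjusted p below 0.05, as in 16.9% of all tested genes, there were 7 mitochondrial genes, all lower, and 9 nuclear ones, 7 higher and 2 lower. DESeq2 called 4 mitochondrial and 0 nuclear members, and limma-voom 5 and 1. In these bulk libraries, fewer cells that express a gene and less of its RNA per cell cannot be told apart.

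**Figure D1:**
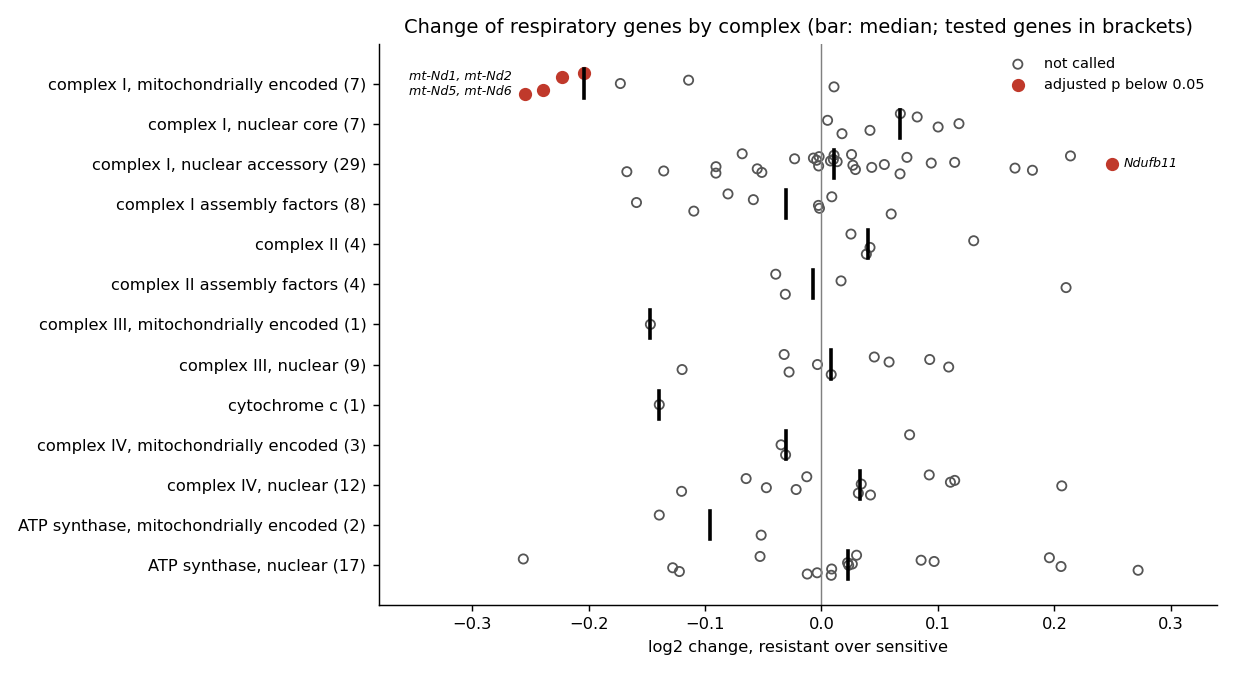
Log2 change (resistant over sensitive, horizontal axis) of every tested member by complex and genome; each circle is a gene, filled circles have an adjusted p below 0.05 and the bar is the median of the class. The mitochondrial complex I genes lie to the left around a median of -0.20, while the medians of the nuclear classes lie between -0.14 for the single cytochrome c gene and 0.07 for the complex I core.

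Complex I, the NADH dehydrogenase, takes 7 of its core subunits from mitochondrial DNA, all in the membrane arm. The transcript of mt-Nd1, whose product borders the ubiquinone channel, was at 5180 and 4922 CPM in the resistant libraries, against 5923 and 6125 CPM in the sensitive libraries. Both resistant libraries were below both sensitive ones, and the transcript fell by 0.25 ± 0.05 (SE) on the log2 scale, a change of -16.2%, with an adjusted p of 0.00479 by edgeR's quasi-likelihood test. The gene lies at chrM:2751-3707 on the plus strand.

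mt-Nd2, mt-Nd4 and mt-Nd5 code for the antiporter-like subunits thought to carry protons. mt-Nd2 was at 2390 and 2277 CPM in resistant cells and at 2685 and 2822 CPM in sensitive cells. mt-Nd5 was at 3661 and 3544 CPM in resistant cells, against 4080 and 4329 CPM in sensitive cells. Neither gene overlapped between the lines, and they fell by 0.24 ± 0.05 and 0.22 ± 0.05 on the log2 scale, with adjusted p-values of 0.0126 and 0.0167 in the edgeR test.

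mt-Nd4 had 2685 and 2607 CPM in resistant cells and 2923 and 3042 CPM in sensitive cells. Its log2 change of -0.17 ± 0.05 did not pass, with an adjusted p of 0.0673 in the edgeR test, although the lines did not overlap. It passed with limma-voom (adjusted p = 0.0385, 3.69% of all genes called), without the filter on low counts (0.0401, 2.94%), and once the reads of a nuclear copy were added, as described further on.

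mt-Nd6 was at 1004 and 989 CPM in resistant cells, against 1118 and 1177 CPM in sensitive cells. The lines did not overlap, and the CPM counted for the gene fell by 0.20 ± 0.05 on the log2 scale (adjusted p = 0.039, edgeR). The call was the weakest of the 4: the adjusted p in edgeR was 0.0506 with upper-quartile scaling (3.57% of all genes called) and 0.0651 with the replicate number as a block (4.98%). The gene is read from the strand opposite to its neighbours and 2.7% of its length overlaps mt-Nd5. Since the strand setting of the counting is not known, reads from the other strand cannot be told apart from its own along the whole gene, not only in the overlap. Whether its lower count is that of its own transcript was not tested.

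The short genes mt-Nd3 and mt-Nd4l had few counts for this genome. mt-Nd3 was at 238 and 236 CPM in resistant cells and at 248 and 223 CPM in sensitive cells, so the lines overlapped (log2 change 0.01 ± 0.06). mt-Nd4l was at 231 and 242 CPM in resistant cells, below the 264 and 248 CPM of sensitive cells, with a log2 change of -0.11 ± 0.06 that did not pass (adjusted p = 0.345, edgeR). In all, 6 of the 7 mitochondrial complex I genes had both resistant libraries below both sensitive ones, and their median log2 change was -0.20.

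The 6 mitochondrial genes of the other complexes had a median log2 change of -0.04, and none was called. The set was split: mt-Cytb and mt-Atp8 had log2 changes of -0.15 and -0.14, the others between -0.05 and 0.08. Of their windows, mt-Cytb and mt-Atp8 share 0% with other genes, while mt-Co1, mt-Co2, mt-Co3 and mt-Atp6 share 51.1% to 100%. mt-Co1, which holds the oxygen-reducing site of complex IV, was at 15671 and 14994 CPM in resistant cells, against 15630 and 15697 CPM in sensitive cells. The lines overlapped, with a log2 change of -0.03 ± 0.04 (adjusted p = 0.781, edgeR). mt-Co2, which accepts electrons from cytochrome c, had 3782 and 3654 CPM in resistant cells and 3743 and 3873 CPM in sensitive cells.

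mt-Co3 was the only mitochondrial protein gene with both resistant libraries above the sensitive ones, at 3260 and 3145 CPM in resistant cells, against 3140 and 2937 CPM in sensitive cells. Its log2 change was 0.08 ± 0.05 (adjusted p = 0.486, edgeR). The gap between the lines was very narrow, from 3145 CPM in resistant replicate 2 to 3140 CPM in sensitive replicate 1. With the reads of its nuclear copy added, the lines overlapped, at 6509 and 6265 CPM in resistant cells and 6293 and 5899 CPM in sensitive cells. mt-Cytb, the only mitochondrial gene of complex III, was at 4901 and 4774 CPM in resistant cells, against 5225 and 5488 CPM in sensitive cells, with a log2 change of -0.15 ± 0.05 (adjusted p = 0.114, edgeR).

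The ATP synthase genes mt-Atp8 and mt-Atp6 lie next to each other and overlap in the stretch shown above. mt-Atp8 was at 1266 and 1214 CPM in resistant cells and at 1334 and 1396 CPM in sensitive cells, a log2 change of -0.14 ± 0.05 (adjusted p = 0.173, edgeR). mt-Atp6 had 3348 and 3139 CPM in resistant cells, against 3373 and 3351 CPM in sensitive cells, a log2 change of -0.05 ± 0.05. In neither gene did the lines overlap, but for mt-Atp6 the gap was very narrow, from 3348 CPM in resistant replicate 1 to 3351 CPM in sensitive replicate 2. In the order of the genome, the protein genes from mt-Co1 to mt-Nd3, mt-Atp8 apart, had changes between -0.05 and 0.08, and the protein genes on either side of this run had changes between -0.25 and -0.11.

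**Figure D2:**
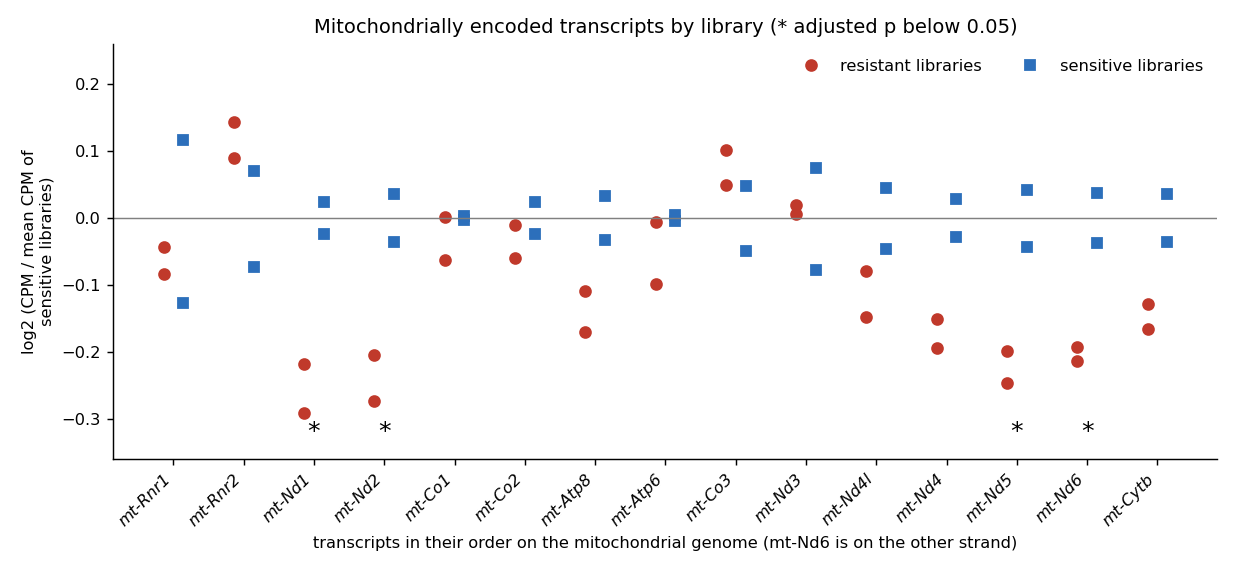
CPM of each mitochondrial transcript in the 4 libraries as a log2 ratio to the mean of the sensitive libraries (vertical axis), in genome order; circles are resistant and squares are sensitive libraries, and an asterisk marks an adjusted p below 0.05. The resistant circles of mt-Nd1, mt-Nd2, mt-Nd5 and mt-Nd6 lie below both sensitive squares, while those of mt-Co1 and mt-Co2 fall among or near them.

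The counts of the 2 mitochondrial rRNAs, which are not members, did not follow the mt-Nd genes. Together the rRNAs took only 0.0882% to 0.100% of library counts, so their counts may not stand for the rRNA of the cells. mt-Rnr1 was at 355 and 345 CPM in resistant cells and at 335 and 397 CPM in sensitive cells. mt-Rnr2 was at 640 and 616 CPM in resistant cells, against 550 and 608 CPM in sensitive cells, with a log2 change of 0.12 (adjusted p = 0.328, edgeR).

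Summed over genes, the mitochondrial protein genes took 4.77% and 4.61% of the counts of the resistant libraries and 4.95% and 5.05% of those of the sensitive libraries, without overlap. The exact (Clopper-Pearson) 95% intervals, which cover counting error only, ran from 4.75% to 4.78% and from 4.60% to 4.62% in the resistant libraries and from 4.94% to 4.96% and from 5.04% to 5.06% in the sensitive libraries. The 7 mt-Nd genes made up 32.3% and 32.4% of mitochondrial protein-gene counts in resistant cells, against 34.7% and 35.4% in sensitive cells. The 3 mt-Co genes made up 47.7% and 47.6% in resistant cells and 45.3% and 44.4% in sensitive cells. The log2 ratio of mt-Nd to mt-Co counts was thus -0.56 in both resistant libraries, against -0.38 and -0.33 in the sensitive ones.

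As a share of the whole library, the mt-Co genes overlapped between the lines, at 2.27% and 2.20% in resistant cells and 2.24% in both sensitive libraries. The mt-Nd genes did not, at 1.54% and 1.49% in resistant cells, against 1.72% and 1.79% in sensitive cells. The 81 nuclear subunits together took 1.26% and 1.24% in resistant cells and 1.25% and 1.20% in sensitive cells, and here the lines overlapped.

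**Figure D3:**
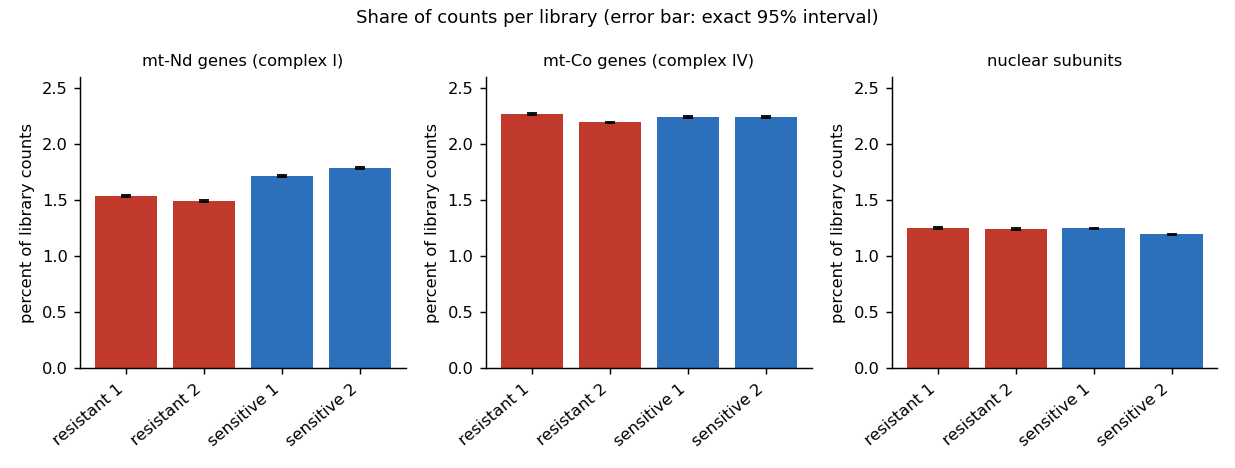
Percent of library counts (vertical axis, from 0) taken by the mt-Nd genes, the mt-Co genes and the nuclear subunits in each library, resistant in red and sensitive in blue; error bars are exact 95% intervals. The mt-Nd bars of the resistant libraries, at 1.54% and 1.49%, are below the sensitive bars at 1.72% and 1.79%, while the other 2 panels show bars of like height.

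The log2 ratio of mitochondrial to nuclear-subunit counts was 1.93 and 1.89 in resistant cells, against 1.98 and 2.08 in sensitive cells, a difference of -0.12 without overlap. The size of this difference depended on the summing. When the median log2 CPM over genes replaced the summed counts, the difference between the lines was 0.0074 and the libraries overlapped. The median level of the mitochondrial genes is that of mt-Co3 in resistant replicate 1, mt-Atp6 in resistant replicate 2, mt-Co3 in sensitive replicate 1 and mt-Nd4 in sensitive replicate 2, so it does not compare the same gene across libraries. The median of the genes' own log2 changes was -0.14 for mitochondrial and 0.02 for nuclear members, as given above. No test was made of these ratios: with 2 libraries a line, the smallest p an exact permutation test can give is 0.333.

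Part of the mitochondrial genome has nuclear copies, in which the same reads can be counted. Copies were taken as genes of the table, outside the mitochondrial genome, that share at least 100 identical 50-base windows with a mitochondrial mRNA, and this choice was made after the values were seen. There are 9, all annotated as unprocessed pseudogenes: 7 lie side by side on chromosome 1, from Gm28439 at chr1:24611535-24612410 to Gm29216 at chr1:24615706-24616197, and Gm13340 and Gm13341 lie on chromosome 2. All windows of mt-Co2 (100%) and 99.9%, 99.5%, 98.8% and 98.0% of those of mt-Co3, mt-Atp6, mt-Nd4l and mt-Nd3 also occur in another gene. The shares were 62.2% for mt-Nd4, 51.1% for mt-Co1, 8.19% for mt-Nd2 and 7.61% for mt-Nd5, and 0% for mt-Nd1, mt-Nd6, mt-Cytb and mt-Atp8.

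Of the 9 copies, 5 had nearly the same CPM as the gene they copy: Gm28661, Gm28437, Gm10925, Gm28438 and Gm10222. The other 4 had fewer: Gm29216 and Gm13340 (mt-Co1), Gm13341 (mt-Co2) and Gm28439 (mt-Nd4). Gm13341, for example, was at 253 and 249 CPM in resistant cells and at 258 and 246 CPM in sensitive cells. Gm28661, the copy of mt-Co2 on chromosome 1, was at 3865 and 3773 CPM in resistant cells and at 3809 and 3925 CPM in sensitive cells, beside the 3782 and 3654 and the 3743 and 3873 CPM of mt-Co2 itself. Gm28437, the copy of mt-Co3, was at 3245 and 3126 CPM in resistant cells, against 3149 and 2964 CPM in sensitive cells. Of the summed counts of gene and copies, the copies held 52.1% for mt-Co2, 50.6% for mt-Atp6, 50.0% for mt-Co3 and mt-Nd4l, 49.3% for mt-Nd3, 27.9% for mt-Nd4 and 21.3% for mt-Co1. Reads of these 7 genes and of their copies cannot be told apart in the shared windows.

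The log2 changes of the copies ran from -0.20 to 0.06, beside -0.17 to 0.08 for their genes. Gm28439, the copy of mt-Nd4, was itself called lower, with 1026 and 1004 CPM in resistant cells, against 1138 and 1196 CPM in sensitive cells (log2 change -0.20 ± 0.05, adjusted p = 0.0411, edgeR). Its gene had a log2 change of -0.17. With each copy's counts added to its gene and the copies removed, an alternative chosen after seeing the data, mt-Nd4 was at 3713 and 3607 CPM in resistant cells and at 4064 and 4236 CPM in sensitive cells. It was then called lower (log2 change -0.18 ± 0.05, adjusted p = 0.0486, edgeR), while the other calls were unchanged at 4 mitochondrial genes and Ndufb11. In that fit, 442 of 11936 genes (3.7%) were called. If reads with several matches were counted at each place, the merged counts hold them more than once. If they were spread over the places, the unmerged counts of these genes are too low. mt-Co3 had 35660 and 37409 counts in resistant cells and 40795 and 30262 in sensitive cells. Its copy Gm28437 had 35503 and 37187, fewer, and 40912 and 30538, more. Which rule was used is not known and was not tested.

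The other merged genes were not called: the log2 change was -0.14 ± 0.06 for mt-Nd4l, -0.06 ± 0.05 for mt-Atp6, -0.03 ± 0.04 for mt-Co1, -0.03 ± 0.05 for mt-Co2, 0.07 ± 0.05 for mt-Co3 and -0.0046 ± 0.06 for mt-Nd3. With the copies included, the mitochondrial protein genes took 6.41% and 6.22% of counts in resistant cells, against 6.59% and 6.70% in sensitive cells. The log2 ratio of mt-Nd to mt-Co counts was then -1.02 in both resistant libraries, against -0.84 and -0.79 in the sensitive ones, so the gap between the lines remained. The limit given above for merged counts holds for these shares and ratios too.

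**Figure D4:**
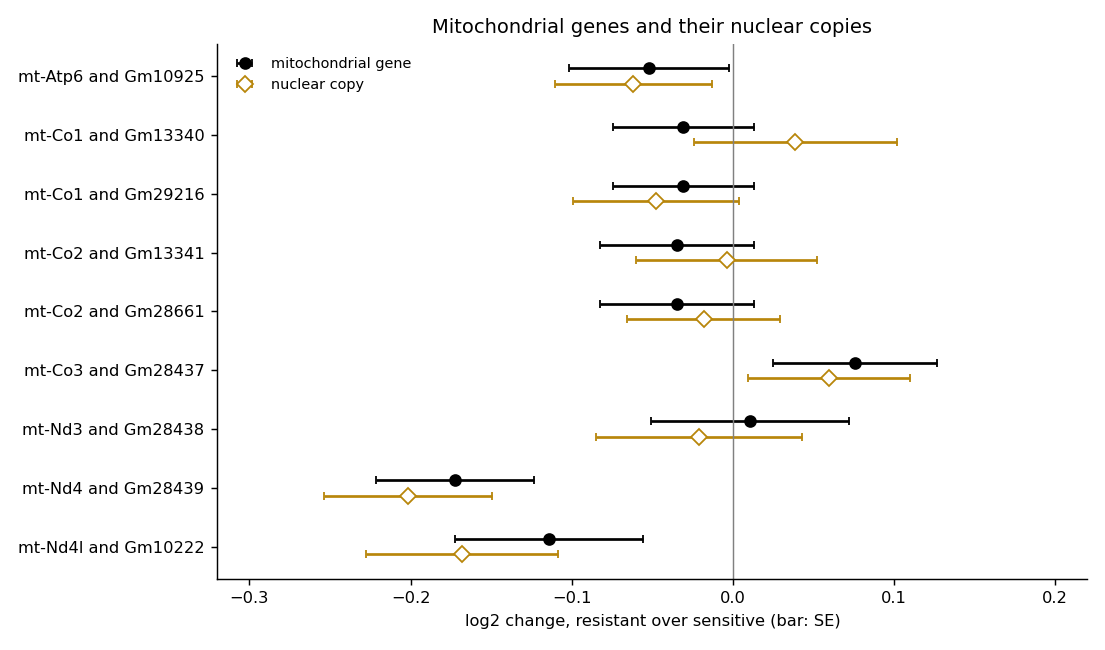
Log2 change (resistant over sensitive, horizontal axis) of each mitochondrial gene with a nuclear copy (filled circle) and of the copy (open diamond), with SE bars. The symbols of each pair lie within each other's bars or near them, and the pair of mt-Nd4 and Gm28439 is the farthest below 0, at -0.17 and -0.20.

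Nuclear subunits of complex I behaved differently from the mitochondrial ones. The 7 nuclear core subunits, which carry the flavin and the iron-sulphur clusters that bring electrons from NADH to ubiquinone, had log2 changes of 0.01 to 0.12 with a median of 0.07. All 7 were above 0 and none was called. Without sensitive replicate 2, 6 of the 7 were above 0 and the median was 0.03, with Ndufs1 at -0.07 and Ndufs3 at 0.00089. Ndufs7, next to the quinone site, had the highest, with 68.9 and 71.5 CPM in resistant cells, against 66.5 and 62.7 CPM in sensitive cells. The 29 accessory subunits had a median of 0.01, with 5 above and 7 below without overlap (17.2% and 24.1%, beside 24.1% and 23.2% of all tested genes).

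Ndufb11, an accessory subunit of the membrane arm whose human counterpart is X-linked and mutated in mitochondrial disease, was the only nuclear member called (chrX:20615326-20617619, minus strand). It was at 105.3 and 105.5 CPM in the resistant libraries, against 86.7 and 90.8 CPM in the sensitive libraries. The lines did not overlap, and the transcript rose by 0.25 ± 0.06 on the log2 scale (adjusted p = 0.0374, edgeR). DESeq2, which called 1.67% of its genes, did not call it (adjusted p = 0.286), and of the windows of its mRNA 17.5% occur in other genes, namely the pseudogene Gm6444 and Rbm10, which overlaps its start on the other strand. Rbm10 had a log2 change of -0.08 and was not called, and Gm6444 was at 1.65 and 1.01 CPM in resistant cells and 0.539 and 1.26 CPM in sensitive cells.

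The promoter of Ndufb11 is printed because it belongs to the only nuclear member called. It is the RefSeq sequence upstream of the start (GRCm38.p6, chrX:20617620-20617869, minus strand), and capitals mark matches to a YY1 motif (AANATGGCG, at -211 to -203 from the start) and 4 CCAAT boxes, which read ATTGG on this strand.
Ndufb11: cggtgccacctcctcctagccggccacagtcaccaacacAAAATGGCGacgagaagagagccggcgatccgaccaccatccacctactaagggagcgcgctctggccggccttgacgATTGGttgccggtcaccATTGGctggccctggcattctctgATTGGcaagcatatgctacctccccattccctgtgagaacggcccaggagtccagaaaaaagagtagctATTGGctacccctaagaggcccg

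Promoters were found in RefSeq (from 250 bases before to 50 bases after the start) for 76 of the 93 nuclear members, 81 promoters in all, and searched on both strands. The NRF1 motif (GCGCA and GCGC with any base between them) was in 27.2% of them, against 11.1% of the promoters of tested genes and 4.6% of all promoters in the table. The YY1 motif was in 14.8%, against 5.8% and 2.4%, and the GABP motif CCGGAAG, shared with other ETS factors, in 25.9%, against 19.9% and 8.9%. The E-box CACGTG, the motif that Myc binds with Max, was in 7.4% against 10.6% and 7.2%, and CCAAT in 42.0% against 38.6% and 37.4%. A match is a description of these letters and not a measured site, and 46 of the 81 promoters held an NRF1, GABP or YY1 match.

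By complex, the NRF1 motif was in 37.5% of 16 ATP synthase promoters, 23.5% of 34 complex I promoters and 9.1% of 11 complex IV promoters. The promoter of Atp5g2, which codes for the proton-carrying c subunit of the ATP synthase, is shown as an example (GRCm38.p6, chr15:102671048-102671297, minus strand), with its NRF1 match at -42 to -33 in capitals. The match is its own reverse complement.
Atp5g2: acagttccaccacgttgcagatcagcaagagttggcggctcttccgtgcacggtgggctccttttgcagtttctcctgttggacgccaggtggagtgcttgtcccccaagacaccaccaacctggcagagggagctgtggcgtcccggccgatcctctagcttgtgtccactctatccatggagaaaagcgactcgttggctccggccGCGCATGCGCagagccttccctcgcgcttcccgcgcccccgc

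Other nuclear subunits of complex I had changes nearly as large without being called. Ndufs4, an accessory subunit near the NADH-binding module of complex I, was at 41.5 and 46.1 CPM in resistant cells, against 42.2 and 32.8 CPM in sensitive cells. The lines overlapped, with sensitive replicate 2 the lowest, and the log2 change was 0.21 ± 0.10 (adjusted p = 0.313, edgeR), or 0.05 without that library. Ndufa12, a late-assembled accessory subunit, had the lowest change of the nuclear subunits of complex I, at 81.7 and 78.6 CPM in resistant cells and 85.4 and 94.9 CPM in sensitive cells (log2 change -0.17, adjusted p = 0.234, edgeR). Without sensitive replicate 2, its highest library, the log2 change of Ndufa12 was -0.09.

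The 8 complex I assembly factors, which build the complex but are not part of it, had a median log2 change of -0.03, and none was called. Ndufaf5, a hydroxylase that acts on Ndufs7, had 13.3 and 11.2 CPM in resistant cells and 13.7 and 13.5 CPM in sensitive cells. Ndufaf1, which takes part in assembling the membrane arm, had 21.9 and 26.8 CPM in resistant cells and 25.1 and 21.4 CPM in sensitive cells. Their log2 changes were -0.16 and 0.06, the lowest and the highest of the 8.

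Complex II, succinate dehydrogenase, is wholly nuclear and also serves the TCA cycle. All 4 subunits had log2 changes above 0, from 0.03 for Sdhd to 0.13 for Sdhc, both membrane anchors, with a median of 0.04 and none called. Without sensitive replicate 2, Sdha and Sdhc stayed above 0 and the log2 changes of Sdhb and Sdhd were -0.00044 and -0.05. Sdhc was at 66.0 and 63.9 CPM in resistant cells, against 61.0 and 57.4 CPM in sensitive cells. Sdhaf2, which helps to attach the flavin to Sdha, was at 62.0 and 60.5 CPM in resistant cells and at 52.7 and 53.2 CPM in sensitive cells. The lines did not overlap, and its log2 change of 0.21 ± 0.07 did not pass (adjusted p = 0.125, edgeR).

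Complex III passes electrons from ubiquinol to cytochrome c. Its 9 nuclear members, none called, had a median log2 change of 0.01, between -0.12 for Uqcr11 and 0.11 for Uqcrb, both small subunits without a redox centre. Without sensitive replicate 2 the median was -0.02 and Uqcrb was at 0.01. Uqcr11 was at 93.1 and 87.1 CPM in resistant cells, against 95.2 and 100.7 CPM in sensitive cells. The Rieske protein Uqcrfs1 was at 166 and 168 CPM in resistant cells and at 170 and 143 CPM in sensitive cells, with a log2 change of -0.02 without sensitive replicate 2. Cycs, the somatic cytochrome c that also triggers apoptosis when released, was at 55.9 and 55.5 CPM in resistant cells, below the 62.4 and 60.2 CPM of sensitive cells, with a log2 change of -0.14 ± 0.07 (adjusted p = 0.335, edgeR).

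Complex IV, cytochrome c oxidase, has several subunits with tissue-specific isoforms. None of the 12 tested nuclear subunits was called, and their median log2 change was 0.03. Cox6c had the highest change, with 169 and 170 CPM in resistant cells, against 159 and 134 CPM in sensitive cells (log2 change 0.21 ± 0.07, adjusted p = 0.144, edgeR), or 0.09 without sensitive replicate 2. Cox5b, on the matrix side of the complex, had the lowest, with 146 CPM in both resistant libraries, against 153 and 165 CPM in sensitive cells (log2 change -0.12 ± 0.06), or -0.07 without sensitive replicate 2. Cox7b and Cox7a2l had log2 changes of 0.11 each and were not called.

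The muscle isoforms were almost undetected in these cells. Cox6a2 had 0 and 1 counts in resistant cells and 1 and 2 counts in sensitive cells, and per kilobase of exon the ubiquitous Cox6a1 held over 99.9% of the pair's signal. Cox7a1 had 5 and 6 counts in resistant cells, against 6 and 7 counts in sensitive cells. Ndufa4, first described in complex I and now placed in complex IV, was at 160 and 156 CPM in resistant cells and at 164 and 132 CPM in sensitive cells, and its log2 change without sensitive replicate 2 was -0.05.

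The ATP synthase combines a catalytic F1 head with a membrane rotor and stator. None of its 17 nuclear members was called, with a median log2 change of 0.02. Atp5e, the epsilon subunit of the central stalk, had the highest change of all nuclear members, at 84.3 and 88.3 CPM in resistant cells, against 78.7 and 63.6 CPM in sensitive cells. The lines did not overlap, sensitive replicate 2 was the lowest, and the log2 change of 0.27 ± 0.09 had an adjusted p of 0.0988 in the edgeR test. Without that library its log2 change was 0.13 and that of Ndufb11, at 0.28, was the highest of the nuclear members. Atp5mpl, a small membrane subunit, showed the same library apart, with 84.5 and 84.7 CPM in resistant cells and 85.3 and 61.3 CPM in sensitive cells, and its log2 change without it was -0.01. Atp5l, the g subunit of the membrane part, had the lowest change of all nuclear members, at 4.75 and 6.05 CPM in resistant cells, against 6.47 and 6.50 CPM in sensitive cells (log2 change -0.26 ± 0.18, adjusted p = 0.512, edgeR). Of its windows, 84.85% occur in other genes, mostly pseudogenes.

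The c subunit of the rotor ring is encoded by 3 genes whose mature proteins are alike. Atp5g2 was at 193 and 175 CPM in resistant cells, against 162 and 158 CPM in sensitive cells (log2 change 0.21 ± 0.06, adjusted p = 0.0900, edgeR). Atp5g1 was at 127 and 125 CPM in resistant cells and at 140 and 136 CPM in sensitive cells, and Atp5g3 overlapped between the lines. Per kilobase of exon, Atp5g3 held 47.9% and 50.8% of the summed CPM of the 3 genes in resistant cells and 52.6% and 49.9% in sensitive cells, and Atp5g1 the least, at 9.55% and 9.64% in resistant cells and 10.8% and 11.4% in sensitive cells. By principal transcript length, Atp5g3 held 57.4% and 60.4% in resistant cells and 62.5% and 59.9% in sensitive cells, and Atp5g1 3.95% in both resistant libraries and 4.43% and 4.73% in sensitive ones. Of the windows of Atp5g2, 87.4% occur in the pseudogenes Gm10175 and Gm10231. Gm10231, at 14.5 and 16.0 CPM in resistant cells, against 11.0 and 10.4 CPM in sensitive cells, was itself called higher (log2 change 0.51 ± 0.13, adjusted p = 0.0321, edgeR), and reads of gene and pseudogene cannot be told apart there.

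**Figure D5:**
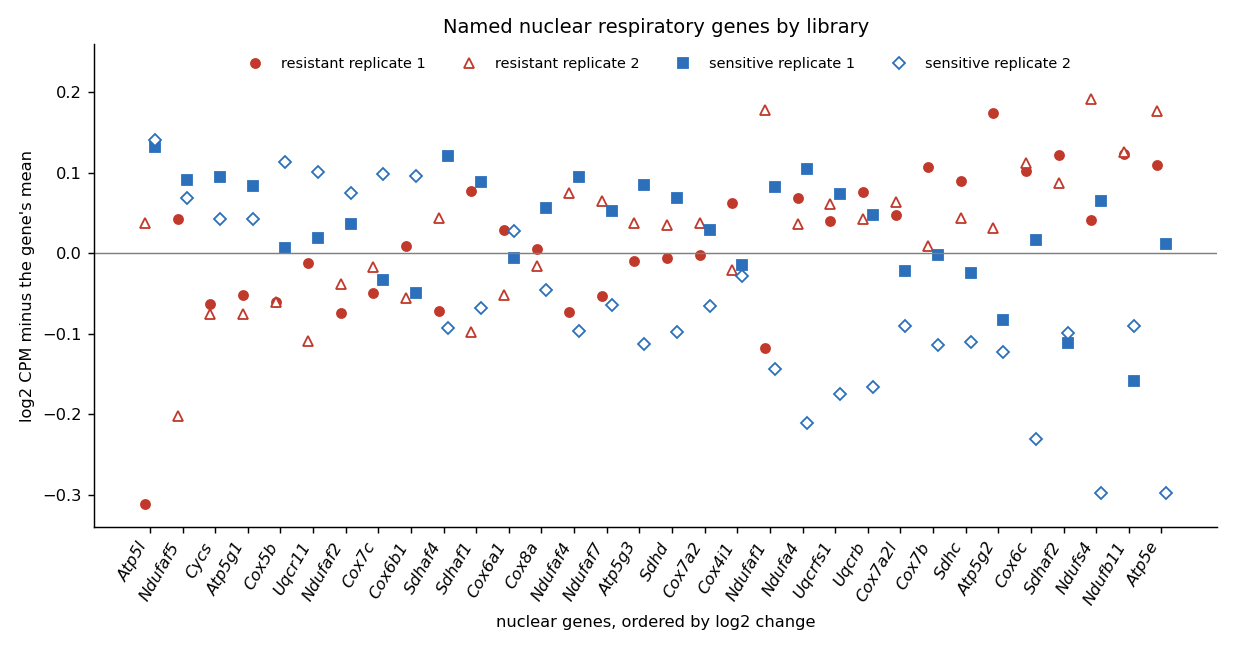
Log2 CPM of the named nuclear members in each library minus the mean of the gene over the 4 libraries (vertical axis), ordered by log2 change; red symbols are resistant and blue symbols are sensitive libraries, open ones replicate 2. The open diamond of sensitive replicate 2 is the lowest for Ndufs4, Atp5e, Cox6c, Ndufa4 and Uqcrfs1, while for Ndufb11 both red symbols lie above both blue ones.

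The calls of nuclear members differed with the sensitive library used. Without sensitive replicate 2, 7 members were called lower, all mitochondrial, and 3 higher, Ndufb11, Atp5g2 and Sdhaf2, in a fit that called 4.78% of all genes lower and 4.9% higher. Without sensitive replicate 1, 10 members were called lower and 14 higher, among them Atp5e, Atp5mpl, Cox6c, Ndufs4 and Ndufa4, in a fit that called 5.85% of all genes lower and 5.42% higher. The median log2 change of the 91 tested nuclear members was -0.012 without sensitive replicate 2, with 34 above 0 and 57 below. By class it was -0.0099 for the complex I accessory subunits, -0.09 for its assembly factors, 0.01 for complex IV and -0.01 for the ATP synthase. In these fits the single sensitive library is assumed to vary like the resistant ones, and which sensitive library is the odd one cannot be told. Without sensitive replicate 1, log2 changes were 0.42 for Ndufs4, 0.46 for Atp5mpl and 0.26 for Ndufa4. Those of mt-Nd1, mt-Nd2, mt-Nd5 and mt-Nd6 were -0.23, -0.20, -0.18 and -0.17 without sensitive replicate 2. Without sensitive replicate 1 they were -0.28, -0.27, -0.26 and -0.24. Without resistant replicate 2, edgeR called 0 members and 2.21% of all genes. Without resistant replicate 1 it called mt-Nd1 and mt-Nd2, and 2.45% of all genes.

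Levels can be compared between genes only per length, and the following values are CPM per kilobase of exon, averaged over the 4 libraries. The mitochondrial genes had a median of 3980 CPM per kilobase and ranged from 679 for mt-Nd3 to 10031 for mt-Co1. The 81 nuclear subunits had a median of 61.7 CPM per kilobase, with Atp5a1, the F1 alpha subunit, the highest at 436. When the length of the principal transcript was used in place of all annotated exons, a choice made after seeing the data, the nuclear median was 112 CPM per kilobase and Atp5b, the catalytic beta subunit, was the highest at 936.

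Within complexes, the mitochondrial subunits of complex I had a median of 2066 CPM per kilobase, beside 39.2 for its nuclear core, 44.8 for its accessory subunits and 9.0 for its assembly factors. For nuclear subunits, the medians were 73.1 CPM per kilobase in complex II, 99.8 in complex III, 114 in complex IV and 93.3 in the ATP synthase. By principal transcript length the complex I values were 66.5 for the core, 76.7 for the accessory subunits and 13.7 for the assembly factors. The other medians were 122 in complex II, 135 in complex III, 223 in complex IV and 187 in the ATP synthase, which then stood above complex III. The highest nuclear subunits by exon length were Ndufc2 at 108 in complex I, Sdhd at 185 in complex II, Uqcr10 at 158 in complex III and Cox8a at 409 in complex IV. By principal transcript length they were Ndufb8 at 152, Sdhd at 185, Uqcrh at 226 and Cox8a at 461 CPM per kilobase. Cycs was at 17.2 CPM per kilobase. These levels hold only the reads counted for the mitochondrial row. With the copies added, mt-Co1 stood at 12746, mt-Co2 at 11488, mt-Atp6 at 9818, mt-Co3 at 7961 and mt-Nd3 at 1339 CPM per kilobase. These sums are too high if reads with several matches were counted at each place. The levels without copies are too low if such reads were spread over the places. Which was done is not known.

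Related genes outside the name rule were counted from lists that were chosen with earlier results of these data known. For every list, the share of all tested genes called was 3.73% in edgeR, 1.67% in DESeq2 and 3.69% in limma-voom. Of 37 genes of mitochondrial DNA maintenance, transcription and RNA processing, 1 was called. Rexo2, an exonuclease that clears short RNA fragments in mitochondria, was at 109 and 114 CPM in resistant cells, against 142 and 133 CPM in sensitive cells, and fell by 0.30 ± 0.06 on the log2 scale (adjusted p = 0.0117, edgeR). Tbrg4, which stabilises some mitochondrial mRNAs, had the next smallest p and a log2 change of -0.15 (adjusted p = 0.179, edgeR). The list's median log2 change was -0.02, and DESeq2 and limma-voom also called 1 of its genes.

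Of 9 further chain subunits and regulators, 1 was called: Atpif1, the inhibitor that stops the ATP synthase from running backwards. It was at 49.5 and 47.2 CPM in resistant cells, against 60.4 and 62.1 CPM in sensitive cells, and fell by 0.34 ± 0.07 on the log2 scale (adjusted p = 0.012, edgeR). Aifm1, which helps to import chain proteins and takes part in cell death, had a log2 change of -0.26 (adjusted p = 0.0550, edgeR). DESeq2 called 0 and limma-voom 1 of the 9.

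Of 19 genes of ubiquinone synthesis and other electron donors, Coq8a, an atypical kinase needed to make ubiquinone, was the only one called. It was at 11.1 and 11.7 CPM in resistant cells, against 7.31 and 7.76 CPM in sensitive cells, and rose by 0.60 ± 0.14 on the log2 scale (adjusted p = 0.0257, edgeR). Coq10a, a ubiquinone-binding protein, was at 7.86 and 6.81 CPM in resistant cells and at 3.93 and 5.92 CPM in sensitive cells, a log2 change of 0.60 that did not pass (adjusted p = 0.124, edgeR). DESeq2 called 0 and limma-voom 1 of the 19.

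None of 38 further assembly factors, 17 TCA-cycle and pyruvate dehydrogenase genes or 15 nuclear regulators of respiratory genes was called by edgeR, DESeq2 or limma-voom. In edgeR, 3, 1 and 2 of them had an unadjusted p below 0.05, beside 16.9% of all tested genes. Their median log2 changes were 0.03, -0.03 and -0.02. The coactivator Pprc1 had the smallest p of the regulators, with 185 and 173 CPM in resistant cells, against 201 and 208 CPM in sensitive cells (log2 change -0.19, adjusted p = 0.0949, edgeR). Myc, which the transgene also expresses, was at 1440 and 1377 CPM in resistant cells, against 1447 and 1665 CPM in sensitive cells (log2 change -0.14, adjusted p = 0.250, edgeR). Sensitive replicate 2 stood apart here, and sensitive replicate 1, at 1447 CPM, was close to resistant replicate 1, at 1440 CPM. Mdh2 had the smallest p in the TCA cycle, with a log2 change of -0.12 (adjusted p = 0.264, edgeR).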

How the data were processed

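RNA was sequenced from 4 libraries of cultured mouse cells, 2 of each line, with a TruSeq RNA kit, per the labels' protocols. The authors deposited a table of whole-number read counts per Ensembl gene, with no normalization. Per the submitters' processing notes, TopHat, Bowtie2, HTSeq, FastQC, cutadapt 1.7 and limma were used with GRCm38, also given as mm10. Not given in the sources used here are the role of each, the strand setting, the annotation release and the treatment of reads with several matches. A counting rule that spreads such reads lowers genes with copies. A rule that counts them at each place makes the sums of genes and copies too high.

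Names, positions and lengths come from GENCODE M21 (16393 of 16591 rows matched). Counts were fitted in edgeR 4.0.16 (R 4.3.3) by quasi-likelihood with TMM factors, a model of the line alone, filterByExpr (minimum count 10, minimum total 15) and Benjamini-Hochberg adjustment over 11945 genes, called at an adjusted p below 0.05. Standard errors come from the F statistic. The fit was tested on simulated data. The outcome is not reported here and is no support for the calls. Library totals ran from 10346007 to 13048103 counts.

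The members and lists were chosen with earlier results of these data known. Named are called members, all mitochondrial protein genes, the most abundant, the 2 highest and the 2 lowest members per complex, isoform families, and in each list the called genes and the 2 of smallest p; Ndufa12, Ndufs7, Atp5b, Atp5mpl, Myc, the rRNAs, the copies and genes overlapping or resembling a member were added after their values were seen. Alternatives were 4 other scalings, no filter, DESeq2 1.42.0, limma-voom (limma 3.58.1), a replicate block and each library left out, and, added after seeing the data, merged nuclear copies and principal-transcript lengths.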

Additional observations from a re-analysis of the deposited data

How the results depend on the processing

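The 4 calls of mt-Nd1, mt-Nd2, mt-Nd5 and mt-Nd6 were made with DESeq2, limma-voom, no filter, DESeq2's factors, nuclear-only factors, library size only and merged nuclear copies, and mt-Nd6 was lost with upper-quartile factors and with the replicate block. DESeq2 called 0 respiratory genes, and so 0 nuclear genes, higher. With the replicate number as a block, 2 were called higher, both nuclear, of which 1 was in the ATP synthase (Atp5e), and 595 genes were called in all, against 445 without it. Whether the numbers pair the libraries is not known. Deviations of same-numbered libraries correlated at -0.020 over genes, which is a single value with 2 libraries a line and cannot settle it. The block changed no call of a member other than those of mt-Nd6 and Atp5e. The difference between the lines in the mitochondrial to nuclear log2 ratio was 0.0074 by medians, against -0.12 by sums.

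Leaving out each library in turn, respiratory genes called higher ranged from 0 to 14 and lower from 0 to 10; mitochondrial genes called lower from 0 to 7 and higher from 0 to 1; nuclear genes called higher from 0 to 13 and lower from 0 to 3. Complex I had 0 to 10 calls, complexes II to IV with cytochrome c 0 to 8, and the ATP synthase 0 to 6. The mitochondrial median ranged from -0.17 to -0.11, the nuclear one from -0.012 to 0.069, and the ratio from -0.17 to -0.08. The lowest counts came without resistant replicate 2 and the highest without sensitive replicate 1.

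Of 585 pairs of a named gene and a setting, 65 concern the 5 called genes, and in 54 of these the call was kept and in 11 it was lost, with 0 reversed. Of the other 520 pairs, 498 stayed uncalled and 22 gained a call. The sign changed in 24 uncalled pairs, in 16 genes. With 2 libraries a line, calls of changes as small as those of the mitochondrial genes depended on single libraries.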
